A study of Mus musculus with 6 samples.

Results

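The ephrins, semaphorins, Slits and netrins, with their Eph, plexin, Robo and Unc5 receptors, were followed in 3 cell populations sorted from mouse hind limb muscle at 2 ages. The genes were chosen by symbol, as every named probe of these 8 families on the array, with the brightest probe taken for each gene. This gave 63 of 19321 named genes, of which 34 encode ligands (8 ephrins, 20 semaphorins, 3 Slits and 3 netrins) and 29 encode receptors (12 Eph receptors, 9 plexins, 4 Robo and 4 Unc5 receptors). The rule itself uses no measured value.

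All mice were C57BL/6, with no transgene or treatment in the labels, and the aged animals were 24 to 28 months old while the young animals were 8 to 10 weeks old. The 6 groups were aged and young PDGFRa+ mesenchymal progenitors, aged and young satellite cells, and aged and young CD31+ or CD45+ cells, called CD31_CD45 below. Each group is 1 one-colour microarray of freshly sorted cells that were pooled over repeated sorts, so no array stands for a single animal and there is no replicate of a population at one age. CD31_CD45 mixes endothelial and hematopoietic cells by design, and which of the cells in it carried a transcript cannot be told apart. In such bulk samples fewer cells of a type and less RNA per cell cannot be told apart either.

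Axon guidance molecules steer growing nerve fibres, and the same ligands and receptors pattern blood vessels and connective tissue. Ephrins are membrane-bound and signal to Eph receptor tyrosine kinases on touching cells, while semaphorins signal through plexins, with neuropilins as co-receptors for most secreted class 3 semaphorins. Slits are secreted and bind Robo receptors, and netrins are laminin-related secreted proteins with Dcc, neogenin and Unc5 proteins as receptors.

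The labels were checked with the markers of each sort. Pdgfra read 4149 and 5700.4 in aged and young PDGFRa+ cells and no more than 60.6 elsewhere, in the linear intensity units deposited by the authors, where the median probe of each array is 25. Pax7, which marks satellite cells, read 1361.6 and 1055 in aged and young satellite cells, at most 10.6 in CD31_CD45 cells, and was below background on both PDGFRa+ arrays. Pecam1, which encodes CD31, read 2450.7 and 2464.8 in aged and young CD31_CD45 cells, and Ptprc, which encodes CD45, read 414.6 and 251.7. Both were far lower elsewhere, with at most 50.1 for Pecam1 and 4.7 for Ptprc. The CD31_CD45 arrays also carried pericyte and smooth muscle markers, with a summed intensity of 11397.2 in aged and 9357.9 in young. Of these, Acta2, the largest part of the sum, read 9442.2 and 6787.9 and Rgs5 756.3 and 1039.1 in aged and young CD31_CD45 cells. Acta2 also read 5553 and 3663.5 in aged and young satellite cells. Cspg4, from the same list, went the other way. It read 62.5 and 68.5 in aged and young CD31_CD45 cells and 103 and 124.4 in aged and young PDGFRa+ cells. The part of pericytes and smooth muscle cells in the genes high in CD31_CD45 was not tested. The satellite arrays gave some signal for mesenchymal markers. The summed intensity of 7 such genes was 8477 in aged and 5841.1 in young satellite cells, against 54806.3 and 65210.1 in aged and young PDGFRa+ cells. In young satellite cells the largest parts were Dpt at 3708 and Cd34 at 1564, while Pdgfra read 7.6 and Lum 43.8. Whether this signal came from other cells was not tested. The relation between the scanner's gains, per the file headers, also set the arrays in 2 sets. Its slope was 0.465 to 0.466 for aged PDGFRa+, young PDGFRa+ and young satellite, and 0.477 to 0.478 for aged satellite and both CD31_CD45 arrays. PDGFRa+ and CD31_CD45 arrays therefore never shared a set. Array signal over background and the number of arrays limit the precision, and between 88.4% and 92.3% of probes were above background.

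Many of these genes gave weak signals. All 63 passed the filter on dim genes (detection above background on 2 or more arrays), and 57 were detected on all 6. Of the 63, 30 stayed under the array median of 25 on every array, and none of these 30 was called in any comparison. Of the 63, 18 differed between at least 2 populations: 11 ligands and 7 receptors. A call between populations needed a 2-fold difference and an adjusted p under 0.05 in a limma fit to all genes. The other 45 passed in no comparison. The median log2 difference of the 63 was -0.01 for PDGFRa+ minus satellite, 0.03 for PDGFRa+ minus CD31_CD45 and 0.01 for satellite minus CD31_CD45, beside -0.01, 0.01 and 0.02 over all 18372 genes tested. The median size of the difference, regardless of sign, was 0.20, 0.38 and 0.20 in the same order for the 63 genes and 0.13, 0.15 and 0.18 for all genes.

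**Figure D1:**
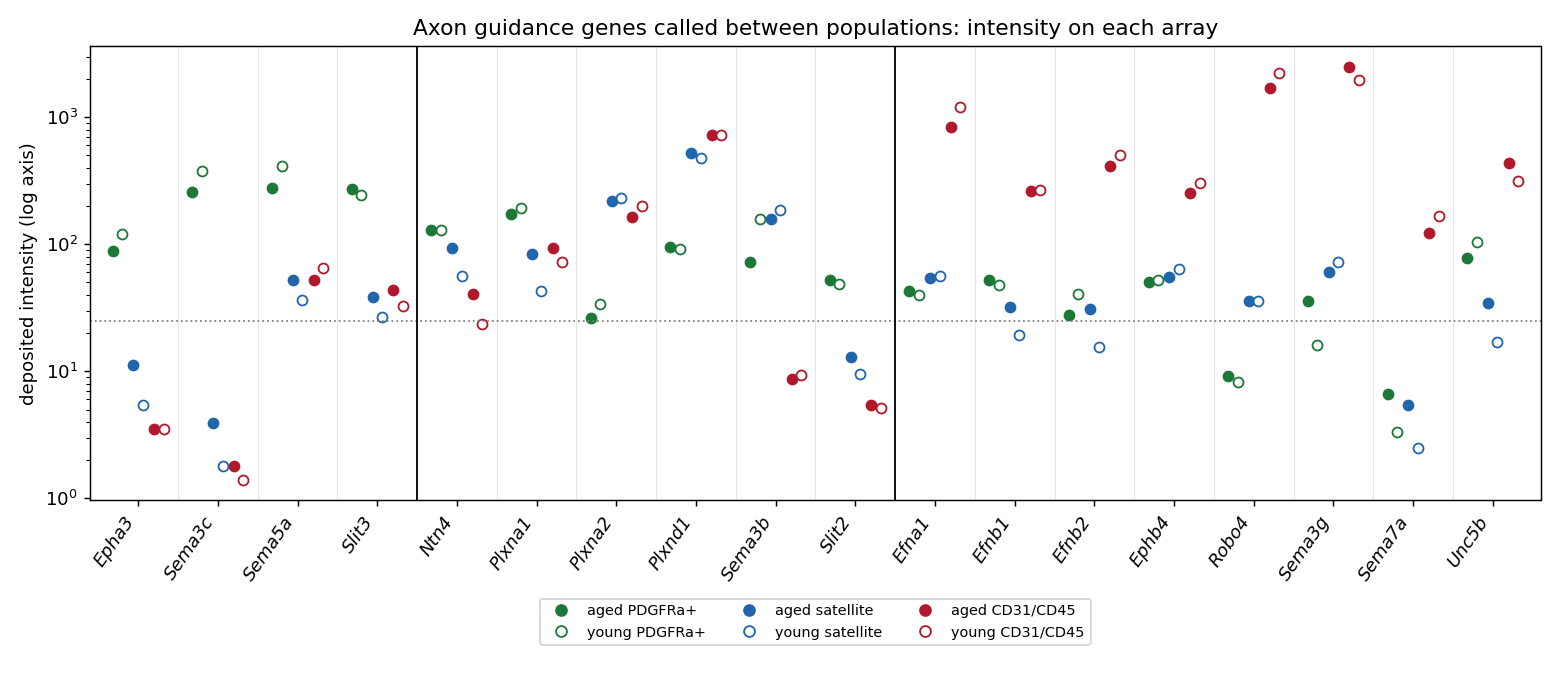
Deposited linear intensity (log axis) of the 18 axon guidance genes called between populations, 1 point per array, with filled points for aged and open points for young arrays; genes specific to PDGFRa+ cells are left of the first vertical line, genes specific to CD31_CD45 cells right of the second, and the dotted line marks the array median of 25. Sema3c stood at 255.8 and 375.6 on the PDGFRa+ arrays with at most 3.9 elsewhere, and Robo4 at 1689.9 and 2245.2 on the CD31_CD45 arrays with at most 35.7 elsewhere.

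The populations differed in which guidance genes they carried. PDGFRa+ cells had the ligands Sema3c, Sema5a and Slit3 and the receptor Epha3, CD31_CD45 cells had ephrins, Ephb4, Robo4, Unc5b and the semaphorins Sema3g and Sema7a, and no gene of these families was called specific to satellite cells. PDGFRa+ minus satellite gave 6 genes higher and 2 lower, or 8 of 63, where 4.09% of all genes tested were called higher, 3.20% lower and 7.28% either way. PDGFRa+ minus CD31_CD45 gave 7 higher and 10 lower, or 17 of 63, beside 4.69% higher, 5.39% lower and 10.1% either way of all genes. Satellite minus CD31_CD45 gave 1 higher and 8 lower, or 9 of 63, beside 5.11% higher, 6.56% lower and 11.7% either way. The split by direction depended on the scaling of dim signals. With the deposited intensities in place of the rescaled ones it was 10 higher and 7 lower for PDGFRa+ minus satellite, 17 and 15 for PDGFRa+ minus CD31_CD45, and 9 and 11 for satellite minus CD31_CD45. With an offset of 10 it was 8 and 7, 11 and 13, and 5 and 10 in the same order. Over all genes, 2977, 3845 and 4414 of 18372 were then called on the deposited intensities, and 2211, 2940 and 3377 with an offset of 10. A gene was taken as specific to a population if it was called higher there than in each of the other 2. That held for 4 genes in PDGFRa+ cells (2.42% of all genes), 0 in satellite cells (2.13% of all genes) and 8 in CD31_CD45 cells (4.54% of all genes). At a share of 2.13% a list of 63 may hold none, so the 0 is not read as a result about satellite cells.

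These calls rest on 2 arrays a population. Without the aged PDGFRa+ array, or without the young one, 0 of 63 members and 0 of 18372 genes were called in PDGFRa+ minus satellite by limma, and 0 members were specific to PDGFRa+ cells. At an unadjusted p under 0.05 with at least 2-fold, 8 members still passed without the aged PDGFRa+ array and 6 without the young one. Without the aged satellite array, 8 members were called in PDGFRa+ minus satellite, 7 of them in common with the fit to all arrays. With the scanner set as a block, which is estimated from the satellite pair alone, 10 in place of 17 members were called in PDGFRa+ minus CD31_CD45 and 4 in place of 8 were specific to CD31_CD45 cells. Single arrays of the same scanner set could be compared in 2 cases, without a test. Young PDGFRa+ minus young satellite gave 3.39 for Sema3c, 2.54 for Sema5a, 2.07 for Slit3, 1.88 for Epha3, -2.08 for Plxnd1 and -1.97 for Plxna2. Aged satellite minus aged CD31_CD45 gave -4.93 for Sema3g, -4.69 for Robo4, -3.35 for Efna1, -2.81 for Efnb2, -2.80 for Unc5b, -2.18 for Efnb1, -1.99 for Sema7a and -1.67 for Ephb4. For PDGFRa+ minus CD31_CD45 no such pair exists, and scanner set and population cannot be told apart there. The block does not settle this. It takes the scanner step from the satellite pair, where that step cannot be told apart from any other difference between the aged and young satellite arrays.

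**Figure D2:**
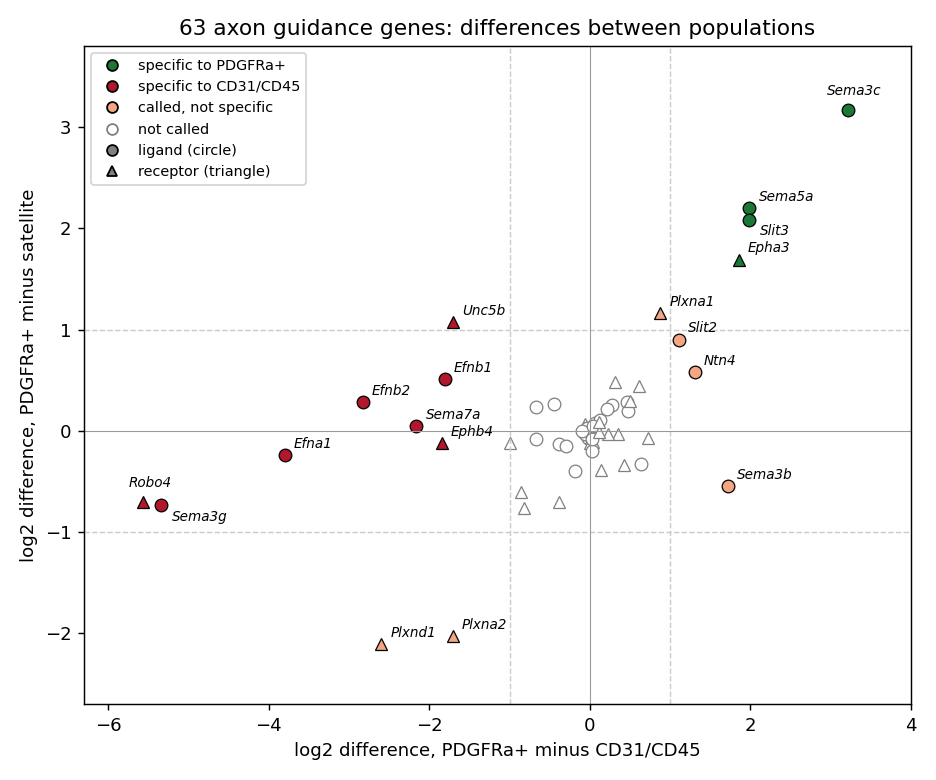
Log2 difference of the 63 genes between PDGFRa+ and satellite cells (vertical axis) against that between PDGFRa+ and CD31_CD45 cells (horizontal axis), with circles for ligands, triangles for receptors, colour for the call and dashed lines at 2-fold; the axes share the PDGFRa+ arrays. Sema3c lies at the upper right, at 3.17 and 3.22, while Robo4 and Sema3g lie at the far left, at -5.57 and -5.34.

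Among ephrins and their receptors, 3 of the 8 ephrins were specific to CD31_CD45 cells. Efna1, a ligand held to the membrane by a lipid anchor (probe M200003390), read 42.5 in aged and 39.6 in young PDGFRa+ cells, 53.9 and 56.4 in aged and young satellite cells, and 841 and 1210.2 in aged and young CD31_CD45 cells. Both CD31_CD45 arrays lay above the other 4, with a log2 difference of -3.80 for PDGFRa+ minus CD31_CD45 (SE 0.17, adjusted p = 0.00241) and -3.56 for satellite minus CD31_CD45 (SE 0.17, adjusted p = 0.00234). With the scanner set as a block, the first of these Efna1 differences was -3.66 with an adjusted p of 0.0622.

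Efnb2 and Efnb1 encode ephrins that span the membrane, and Efnb2 is known for marking arteries. Efnb2 (M200001552) read 27.7 and 40.6 in aged and young PDGFRa+ cells, 30.7 and 15.5 in aged and young satellite cells, and 413.3 and 507.4 in aged and young CD31_CD45 cells. The CD31_CD45 arrays stood above all others, while the PDGFRa+ and satellite arrays overlapped. The log2 differences were -2.83 for PDGFRa+ minus CD31_CD45 (SE 0.18, adjusted p = 0.00458) and -3.11 for satellite minus CD31_CD45 (SE 0.18, adjusted p = 0.00346). Efnb1 (M200001301) read 52.2 and 47.7 in aged and young PDGFRa+ cells, 32.2 and 19.2 in aged and young satellite cells, and 264.7 and 267 in aged and young CD31_CD45 cells. Its differences were -1.81 (SE 0.08, adjusted p = 0.00249) and -2.32 (SE 0.08, adjusted p = 0.00161) in the same order. The other 5 ephrins, Efna2, Efna3, Efna4, Efna5 and Efnb3, read at most 22 on any array.

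Of the 12 Eph receptors, 1 was specific to CD31_CD45 cells and 1 to PDGFRa+ cells. Ephb4 (M200007597), the receptor of Efnb2 that is known for marking veins, read 50.3 and 52 in aged and young PDGFRa+ cells, 55.4 and 63.4 in aged and young satellite cells, and 253.4 and 301.7 in aged and young CD31_CD45 cells. It was lower in PDGFRa+ than in CD31_CD45 cells by a log2 difference of -1.84 (SE 0.08, adjusted p = 0.00241) and lower in satellite than in CD31_CD45 cells by -1.72 (SE 0.08, adjusted p = 0.00236). For Ephb4 the block for scanner set gave -1.88 and an adjusted p of 0.0605 in the first of these. The ligand and the receptor of this artery and vein pair were both highest in the same sorted mixture.

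Epha3 (M400004146), a receptor for lipid-anchored ephrins, had the reverse pattern. It read 87.9 in aged and 120.4 in young PDGFRa+ cells, 11.2 and 5.4 in aged and young satellite cells, and 3.5 on both CD31_CD45 arrays. The Epha3 difference was 1.69 for PDGFRa+ minus satellite (SE 0.11, adjusted p = 0.0082) and 1.86 for PDGFRa+ minus CD31_CD45 (SE 0.11, adjusted p = 0.00396). Epha2, a receptor of Efna1, was not called. It read 2.9 and 3.8 in aged and young PDGFRa+ cells, 33.8 and 25.6 in aged and young satellite cells, and 27.5 and 38.9 in aged and young CD31_CD45 cells. Epha4, a receptor for both kinds of ephrin, read 31 and 74.4 in aged and young PDGFRa+ cells, 53.2 and 61.8 in aged and young satellite cells, and 136.3 and 135.3 in aged and young CD31_CD45 cells. Its difference of -0.99 for PDGFRa+ minus CD31_CD45 lay just under 2-fold.

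Of the 20 semaphorins, 2 were specific to PDGFRa+ cells (Sema3c and Sema5a) and 2 to CD31_CD45 cells (Sema3g and Sema7a), and 15 were called in no comparison. Sema3c (M200002131), a secreted class 3 semaphorin, read 255.8 and 375.6 in aged and young PDGFRa+ cells, 3.9 and 1.8 in aged and young satellite cells, and 1.8 and 1.4 in aged and young CD31_CD45 cells. The PDGFRa+ arrays stood apart by a log2 difference of 3.17 from satellite cells (SE 0.13, adjusted p = 0.00525) and of 3.22 from CD31_CD45 cells (SE 0.13, adjusted p = 0.00223), or 9.03-fold and 9.30-fold. These folds understate the gap of a gene that is near background in the dim population, because 50 was added to every corrected signal before the log. Sema5a (M300003158), a transmembrane semaphorin with thrombospondin repeats, read 278.1 and 412.3 in aged and young PDGFRa+ cells, 52.5 and 36.7 in aged and young satellite cells, and 52.3 and 64.8 in aged and young CD31_CD45 cells. Its differences were 2.20 (SE 0.19, adjusted p = 0.0116) and 1.99 (SE 0.19, adjusted p = 0.00905), and it was not called against CD31_CD45 cells without the young PDGFRa+, the aged CD31_CD45 or the young CD31_CD45 array.

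Sema3g and Sema7a lay in the CD31_CD45 mixture. Sema3g (M400000520), a secreted class 3 semaphorin known from endothelium, read 36 and 16.2 in aged and young PDGFRa+ cells, 60.4 and 72.5 in aged and young satellite cells, and 2502.7 and 1971.3 in aged and young CD31_CD45 cells. That was a log2 difference of -5.34 for PDGFRa+ minus CD31_CD45 (SE 0.21, adjusted p = 0.00208), or 40.4-fold lower, and of -4.60 for satellite minus CD31_CD45 (SE 0.21, adjusted p = 0.00223). Sema7a (M200013843), a lipid-anchored semaphorin known from immune cells, read 6.6 and 3.3 in aged and young PDGFRa+ cells, 5.4 and 2.5 in aged and young satellite cells, and 123.6 and 168.1 in aged and young CD31_CD45 cells. Its differences were -2.16 (SE 0.15, adjusted p = 0.00487) and -2.21 (SE 0.15, adjusted p = 0.00413). With the scanner set as a block the first of these Sema7a values was -1.97 with an adjusted p of 0.101.

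Sema3b, another secreted class 3 semaphorin, was shared by PDGFRa+ and satellite cells. It read 72.3 and 158.7 in aged and young PDGFRa+ cells, 157.2 and 186.9 in aged and young satellite cells, and 8.7 and 9.4 in aged and young CD31_CD45 cells. The Sema3b difference was 1.72 for PDGFRa+ minus CD31_CD45 (SE 0.20, adjusted p = 0.0129) and 2.27 for satellite minus CD31_CD45 (SE 0.20, adjusted p = 0.00649), and it was the 1 member called higher in satellite than in CD31_CD45 cells. Its call in PDGFRa+ minus CD31_CD45 was lost without either CD31_CD45 array, and with the scanner set as a block (1.96, adjusted p = 0.144). Several class 4 and 6 semaphorins, which span the membrane, were above the array median on every array without passing between populations: Sema4a read 114.1 to 243, Sema4c 81.7 to 184.3, Sema4d 37 to 79 and Sema6a 53.4 to 89.5. The Sema4d values are those of its brighter probe. A second probe of Sema4d was below background on the PDGFRa+ and satellite arrays and read 2.5 and 0.9 in aged and young CD31_CD45 cells. Sema4b, Sema4f, Sema4g, Sema5b and Sema6b read at most 14 on any array.

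Among the 9 plexins, Plxnd1 and Plxna2 were the low ones in PDGFRa+ cells. Plxnd1 (M300007015), a semaphorin receptor known from blood vessels, read 94.3 and 92.1 in aged and young PDGFRa+ cells, 522 and 478.4 in aged and young satellite cells, and 728.3 and 728 in aged and young CD31_CD45 cells. The PDGFRa+ arrays lay below the other 4, by -2.11 for PDGFRa+ minus satellite (SE 0.05, adjusted p = 0.00392) and -2.60 for PDGFRa+ minus CD31_CD45 (SE 0.05, adjusted p = 0.000883). Plxna2 (M200000853), a receptor for transmembrane class 6 semaphorins, read 26.1 and 34.1 in aged and young PDGFRa+ cells, 217.9 and 231.5 in aged and young satellite cells, and 163.1 and 201.8 in aged and young CD31_CD45 cells. Its differences were -2.03 (SE 0.07, adjusted p = 0.00451) and -1.71 (SE 0.07, adjusted p = 0.00233), and a second probe of Plxna2 gave -1.77 and -1.88.

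Plxna1, which pairs with neuropilins, was called in 1 comparison and its probes disagreed. The brighter probe read 172.5 and 193.9 in aged and young PDGFRa+ cells, 83.9 and 42.6 in aged and young satellite cells, and 93.4 and 72.9 in aged and young CD31_CD45 cells, with a difference of 1.16 for PDGFRa+ minus satellite (SE 0.18, adjusted p = 0.0274). The second probe of Plxna1 read 11.7 to 16.7 on the 6 arrays, all under the array median, and gave 0.05. The call was also lost with the mean of the 2 probes, and without any one of the aged PDGFRa+, young PDGFRa+, young satellite, aged CD31_CD45 and young CD31_CD45 arrays. Plxnb2, a receptor for class 4 semaphorins, was well above the median in all populations. It read 416.8 and 404.3 in aged and young PDGFRa+ cells, 469 and 350.9 in aged and young satellite cells, and 246.3 and 209.4 in aged and young CD31_CD45 cells, and was not called.

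Slit2 and Slit3 were higher in PDGFRa+ than in CD31_CD45 cells, while Robo4, the 1 Robo receptor called, was higher in CD31_CD45 cells. Slit3 (M400005506), a large secreted ligand, read 269.8 and 242.3 in aged and young PDGFRa+ cells, 38.3 and 26.8 in aged and young satellite cells, and 43.6 and 32.9 in aged and young CD31_CD45 cells. It was higher in PDGFRa+ cells by 2.08 against satellite (SE 0.04, adjusted p = 0.00392) and by 1.98 against CD31_CD45 cells (SE 0.04, adjusted p = 0.000904). Its relative Slit2 (M200007611) read 52.2 and 48.4 in aged and young PDGFRa+ cells, 13 and 9.6 in aged and young satellite cells, and 5.4 and 5.1 in aged and young CD31_CD45 cells. Slit2 passed against CD31_CD45 cells with 1.11 (SE 0.06, adjusted p = 0.0033), while 0.90 against satellite cells (adjusted p = 0.0081) was under 2-fold. With the scanner set as a block, the adjusted p for Slit2 against CD31_CD45 cells was 0.0765. Slit1 read at most 4.9.

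Robo4 (M200005694), the Robo receptor known from endothelium, had the largest difference of the 63 genes. It read 9.1 and 8.3 in aged and young PDGFRa+ cells, 35.7 and 35.6 in aged and young satellite cells, and 1689.9 and 2245.2 in aged and young CD31_CD45 cells. PDGFRa+ minus CD31_CD45 gave -5.57 (SE 0.13, adjusted p = 0.00103), or 47.6-fold lower, and satellite minus CD31_CD45 gave -4.87 (SE 0.13, adjusted p = 0.00116), or 29.3-fold lower. The Robo receptors known from neurons were dim: Robo1 read at most 10.3 and was below background on both CD31_CD45 arrays, Robo2 read at most 3.8 and was below background on both the aged PDGFRa+ and the aged satellite array, and Robo3 read at most 12.9.

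The promoters of Sema3c and Slit3, specific to PDGFRa+ cells, and of Sema3g and Robo4, the genes with the largest differences in CD31_CD45 cells, are shown because they differ in base composition. Each sequence is the 250 bases before the gene's start in the RefSeq table for build GRCm38.p6, read 5′ to 3′ on the gene's strand, and capitals mark AGGAAG on either strand (so also CTTCCT), the core recognised by ETS factors.
Sema3c: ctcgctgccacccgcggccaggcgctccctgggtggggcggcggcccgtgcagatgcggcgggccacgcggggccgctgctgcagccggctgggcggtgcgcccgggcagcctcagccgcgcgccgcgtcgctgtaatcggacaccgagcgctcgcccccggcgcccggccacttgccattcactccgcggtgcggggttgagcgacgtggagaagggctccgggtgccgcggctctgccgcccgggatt
Slit3: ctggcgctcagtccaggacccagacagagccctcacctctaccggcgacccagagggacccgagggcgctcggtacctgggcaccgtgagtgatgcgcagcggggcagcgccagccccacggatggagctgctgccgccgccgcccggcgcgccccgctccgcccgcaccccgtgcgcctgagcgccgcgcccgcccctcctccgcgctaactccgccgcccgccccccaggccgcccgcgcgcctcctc
Sema3g: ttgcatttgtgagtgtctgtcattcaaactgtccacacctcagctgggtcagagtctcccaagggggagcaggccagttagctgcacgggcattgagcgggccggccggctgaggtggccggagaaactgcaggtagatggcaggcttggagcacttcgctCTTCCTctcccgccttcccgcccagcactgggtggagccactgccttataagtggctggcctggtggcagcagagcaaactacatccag
Robo4: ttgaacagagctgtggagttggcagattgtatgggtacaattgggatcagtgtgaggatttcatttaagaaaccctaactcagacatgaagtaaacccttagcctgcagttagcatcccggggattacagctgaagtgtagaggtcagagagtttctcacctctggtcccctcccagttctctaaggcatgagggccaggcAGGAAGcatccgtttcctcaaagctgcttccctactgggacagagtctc
These windows are chr5:17574566-17574815 for Sema3c, chr11:35121206-35121455 for Slit3, chr14:31217623-31217872 for Sema3g and chr9:37401722-37401971 for Robo4, all on the plus strand. The Sema3c and Slit3 windows hold 39 and 35 CpG pairs and are 78.4% and 78.8% G or C. The Sema3g and Robo4 windows hold 8 and 2 CpG pairs and are 60.4% and 49.6% G or C, while the median of all 32851 windows in the table was 6 CpG pairs and 52.4%. These 4 windows are not typical of their groups: over all specific genes the windows held 16 to 39 CpG pairs for PDGFRa+ cells and 2 to 27 for CD31_CD45 cells, with 27 in the Efnb2 and Unc5b windows and 16 in that of Epha3. AGGAAG was found in 0 of the 4 windows of the 4 genes specific to PDGFRa+ cells, in 4 of the 9 windows of the 8 genes specific to CD31_CD45 cells, in 24 of the 70 windows of all members, and in 29.5% of all windows. The GC box GGGCGG, whose sites can share at most 1 end base with AGGAAG, was found in 3 of 4 and 7 of 9 of these windows, in 50 of the 70 windows of all members, and in 32.7% of all windows, counting both strands. Of the 63 genes, 54 had a window in the table. A match is a description of the sequence, not a bound site.

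Of the 3 netrins, Ntn1 and Ntn3 were dim, and of the 4 Unc5 receptors 1, Unc5b, was called. Ntn4 (M300001955), a laminin-like netrin of basement membranes, read 129.1 and 128.7 in aged and young PDGFRa+ cells, 93.4 and 56.3 in aged and young satellite cells, and 40.6 and 23.5 in aged and young CD31_CD45 cells. It was called against CD31_CD45 cells alone, with 1.31 for PDGFRa+ minus CD31_CD45 (SE 0.11, adjusted p = 0.00745), and this was lost without either CD31_CD45 array and with the scanner set as a block (1.59, adjusted p = 0.0625). Ntn1 read 8.5 and 8.6 in aged and young PDGFRa+ cells and at most 2.7 elsewhere, and Ntn3 read at most 2.5.

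Unc5b (M200006710), a netrin receptor known from endothelium, was ordered over all 3 populations. It read 77.9 and 104.5 in aged and young PDGFRa+ cells, 34.5 and 17 in aged and young satellite cells, and 437.4 and 316.4 in aged and young CD31_CD45 cells. Satellite minus CD31_CD45 gave -2.78 (SE 0.20, adjusted p = 0.00471) and PDGFRa+ minus CD31_CD45 gave -1.70 (SE 0.20, adjusted p = 0.0131). The Unc5b difference of 1.07 for PDGFRa+ minus satellite (SE 0.20, adjusted p = 0.039) did not pass in any of the 6 fits that left out an array. The difference from CD31_CD45 cells was called in PDGFRa+ cells in 4 of 6 such fits, the exceptions being those without a CD31_CD45 array, and its adjusted p was 0.203 with the scanner set as a block. Unc5a read 12.3 to 65.6, while Unc5c and Unc5d read at most 13.4.

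Ligands were then set beside receptors of the matching families in a fixed list of 21 pairs, 20 of them with both partners measured here. Direct binding was not tested and may not hold for every listed pair. Both partners were highest in the same population in 7 of the 20 pairs, by the mean of its arrays and however small the lead. Of all members, 13 ligands and 8 receptors were highest in PDGFRa+ cells. In satellite cells these were 7 and 12, and in CD31_CD45 cells 14 and 9. Some pairs match at such shares whatever their link, so the count is not read as a result about the pairs. Of the 9 pairs in which either partner was specific to a population, Efnb2 and Ephb4 were the 1 pair in which both were specific to the same one. Slit3 and Robo4 were the pair in which ligand and receptor were specific to different populations, PDGFRa+ and CD31_CD45. Sema3c likewise lay in PDGFRa+ cells, while its receptor Plxnd1 was low there and higher in satellite and CD31_CD45 cells, and Ntn4 read highest in PDGFRa+ cells while Unc5b was specific to CD31_CD45 cells. Other partners of specific genes passed in no comparison, including some that read highest in the same population. Plxnb3, a receptor of Sema5a, read 67.1 and 30.5 in aged and young PDGFRa+ cells and 23.8 to 34.8 elsewhere. Plxnc1, the receptor of Sema7a, read 9.3 and 5.8 in aged and young CD31_CD45 cells and 3.7 to 6.4 elsewhere, and Efna5, a ligand of Epha3, read 2.4 to 6.6 over all arrays. Transcript levels of 2 partners do not show that the proteins meet.

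**Figure D3:**
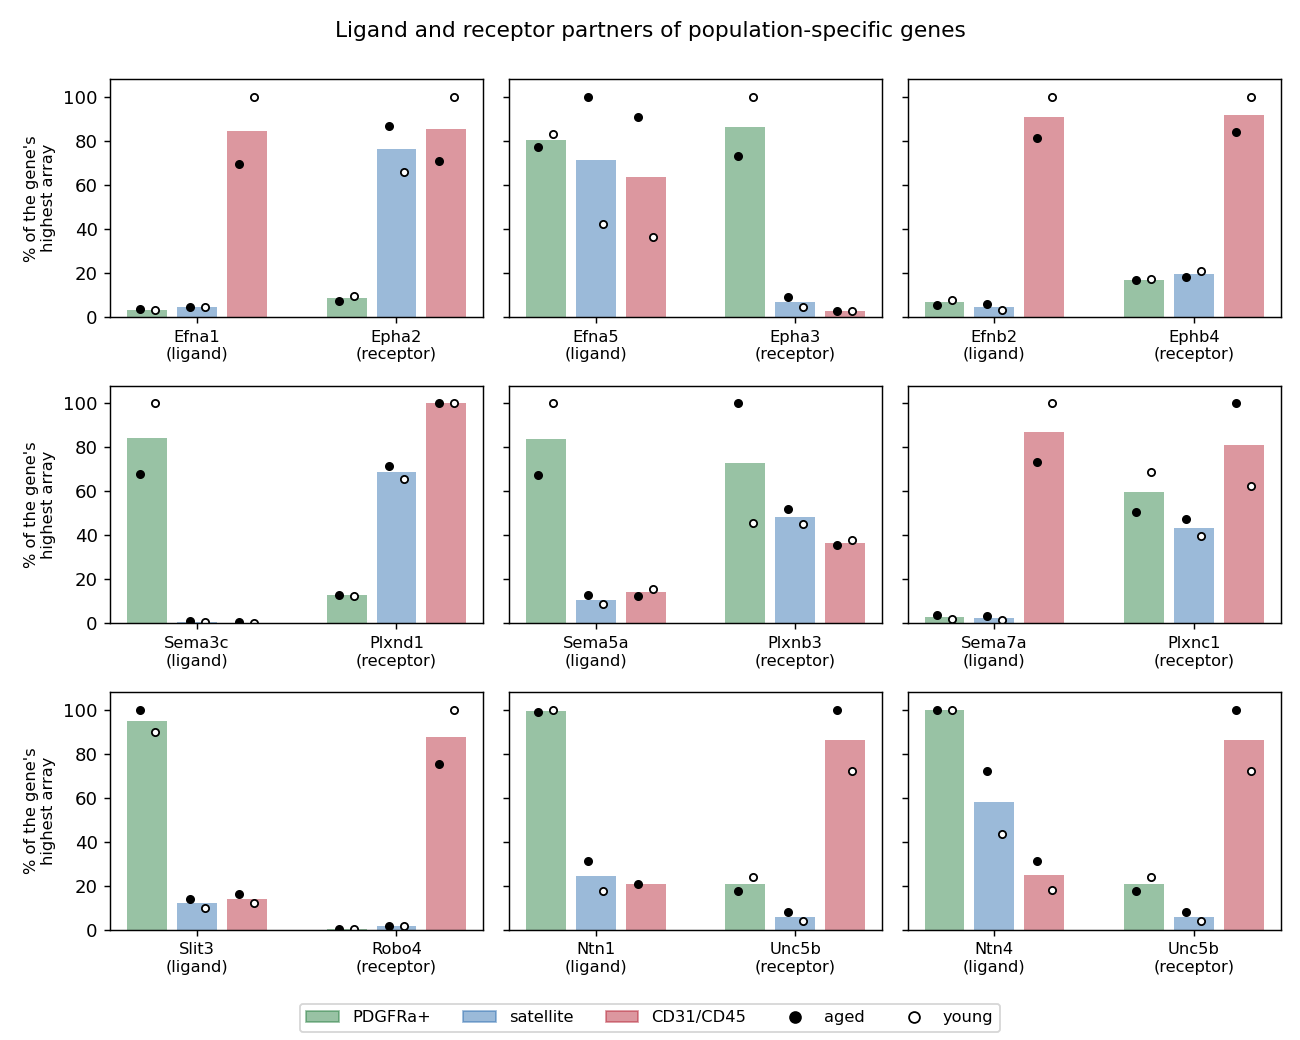
Intensity of each partner of the 9 ligand and receptor pairs with a population-specific gene, as a percentage of that gene's own highest array, with bars for the mean of the aged and young arrays and points for each array; levels are not comparable between genes, and Ntn1 has 1 point in CD31_CD45 cells because the young array was below background. Efnb2 and Ephb4 both reach their highest value in CD31_CD45 cells, whereas Slit3 is highest in PDGFRa+ cells, where Robo4 read 9.1 and 8.3.

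Co-receptors and other partners of the families were also counted, with 23 of 24 listed genes tested. PDGFRa+ minus satellite called 2 higher and 1 lower, PDGFRa+ minus CD31_CD45 3 higher and 2 lower, and satellite minus CD31_CD45 3 higher and 2 lower. All genes gave 4.09% higher and 3.20% lower, 4.69% and 5.39%, and 5.11% and 6.56% in the same order. Counts in so short a list are not read as a result about it. Nrp1 and Nrp2, the neuropilins that class 3 semaphorins bind, were specific to CD31_CD45 cells. Nrp1 read 238.5 and 334.1 in aged and young PDGFRa+ cells, 79.7 and 27.1 in aged and young satellite cells, and 1042.7 and 1306.8 in aged and young CD31_CD45 cells, with -1.99 for PDGFRa+ minus CD31_CD45 (adjusted p = 0.032) and -3.87 for satellite minus CD31_CD45 (adjusted p = 0.00735). Nrp2 read 116.3 and 95.6 in aged and young PDGFRa+ cells, 53.9 and 28.2 in aged and young satellite cells, and 575.6 and 696.2 in aged and young CD31_CD45 cells.

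Flrt2, a ligand that binds Unc5 receptors, was specific to PDGFRa+ cells, with 98.9 and 104.2 in aged and young PDGFRa+ cells and 7.5 to 17.5 elsewhere. Ncam1, an adhesion molecule of nerve and muscle, was specific to satellite cells, with 139.5 and 176.7 in aged and young satellite cells and 4.2 to 21.6 elsewhere. Rgma and Rgmb, ligands of neogenin, were higher in both PDGFRa+ and satellite cells than in CD31_CD45 cells. Rgma gave 2.94 for PDGFRa+ minus CD31_CD45 (adjusted p = 0.00605) and 2.36 for satellite minus CD31_CD45 (adjusted p = 0.00778). Rgmb gave 1.38 (adjusted p = 0.00711) and 1.39 (adjusted p = 0.00607).

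Of 54 listed genes of signal transduction below these receptors, 50 were tested. PDGFRa+ minus satellite called 3 higher and 0 lower, PDGFRa+ minus CD31_CD45 3 higher and 6 lower, and satellite minus CD31_CD45 0 higher and 8 lower. All genes gave 4.09% higher and 3.20% lower, 4.69% and 5.39%, and 5.11% and 6.56% in the same order, with 4.54% specific to CD31_CD45 cells. These counts, too, are not read as a result about the list. Limk1, a kinase that acts on cofilin, was specific to PDGFRa+ cells at 122.2 and 106.1 in aged and young PDGFRa+ cells, with 25.1 to 37.1 elsewhere. The 4 genes specific to CD31_CD45 cells were Adam10, a protease that sheds ephrins, Rnd1, a small GTPase that binds plexins, the kinase Fes and the motor protein Myo10. Myo10 read 30.9 and 35.8 in aged and young PDGFRa+ cells, 41 and 29.4 in aged and young satellite cells, and 312 and 333.7 in aged and young CD31_CD45 cells.

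No member passed the test for age, and no gene of the array did. In the age term shared by the 3 populations, 0 of 63 members were called by limma at an adjusted p under 0.05, as were 0 of 18372 genes (0.00%), while 9 members and 11.0% of all genes had an unadjusted p under 0.05. The smallest p-values among the members belonged to Slit3, at 0.23 on the log2 scale for aged minus young (SE 0.03, adjusted p = 0.328), Sema4d at -0.20 (SE 0.03, adjusted p = 0.328) and Unc5a at 0.30 (SE 0.05, adjusted p = 0.328). Slit3 was higher and Sema4d lower on the aged array in 3 of 3 populations, Sema4d by its brighter probe. The second probe of Sema4d was near or below background on every array. Of the 61 members above background on the brighter array in all 3 pairs, 10 were higher and 9 lower on every aged array, or 16.4% and 14.8%, beside 14.2% and 21.1% of all genes.

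Within a population the single aged and young arrays were compared as values, with no test. On the log2 scale with its offset of 50, 0 members were 2-fold apart in any population, where 0.420% of all genes were in PDGFRa+ cells, 1.23% in satellite cells and 0.580% in CD31_CD45 cells, shares under which a list of 63 may hold none. The offset shrinks differences of dim genes: on the deposited intensities (log2 of value + 1), 5 members were 2-fold apart in PDGFRa+ cells, 3 in satellite cells and 1 in CD31_CD45 cells. No share over all genes is given here for that scale, so these counts are not read as a result about the members. Members higher on the aged array were 36 of 63 in PDGFRa+ cells, 33 of 62 in satellite cells and 25 of 62 in CD31_CD45 cells, where all genes gave 49.2%, 43.9% and 43.5%. Sema3a, a secreted semaphorin that repels axons, was the member with the largest difference in PDGFRa+ cells and was lower on the aged array in all 3 populations. It read 13.1 in aged and 55.4 in young PDGFRa+ cells, 34.4 in aged and 63.5 in young satellite cells, and 2.5 in aged and 12.8 in young CD31_CD45 cells. The log2 differences of Sema3a were -0.84, -0.50 and -0.36 in that order, and its shared age term was -0.57 (SE 0.11, adjusted p = 0.339). With each spot's own local background, Sema3a gave -0.10 in PDGFRa+ and -0.18 in satellite cells.

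In PDGFRa+ cells the next members by size were Plxnb3, with 67.1 on the aged and 30.5 on the young array (0.74), Sema3b with 72.3 and 158.7 (-0.71), and Epha4 with 31 and 74.4 (-0.64). Glial markers were higher on the aged PDGFRa+ array for 5 of 6 genes (median 0.38, summed intensity 543.4 in aged and 304.9 in young), and macrophage markers were higher for 4 of the 5 above background (summed intensity 2029.5 in aged and 253.6 in young). Adgre1, a defining macrophage marker, was below background on both PDGFRa+ arrays, while Lyz2, the lysozyme gene on that list, read 1904.6 in aged and 110.1 in young. The part of such cells in these differences was not tested.

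In satellite cells the members with the largest differences besides Sema3a were Plxna1, with 83.9 on the aged and 42.6 on the young array (0.63), Ntn4 with 93.4 and 56.3 (0.53), and Plxnb2 with 469 and 350.9 (0.48). These are the arrays that lie in different scanner sets, and several lists of other cells were higher on the aged one. These were mesenchymal markers for 6 of 7 genes (median 1.00), tendon markers for 4 of 4 (median 1.64, summed intensity 3008.3 in aged and 782.2 in young) and myofibre markers for 7 of 7 (median 0.96, summed intensity 3622.6 in aged and 1829.7 in young). Pericyte and smooth muscle markers were higher for 6 of 6 (median 1.01, summed intensity 6529.6 in aged and 3867.6 in young), and macrophage markers for 6 of 6 (median 0.11, summed intensity 1066.2 in aged and 228.6 in young), with Lyz2 the largest of these at 2.55. Among the signal transduction genes Dpysl3, a collapsin response mediator, read 252.7 in aged and 29.6 in young satellite cells, a difference of 2.22. The parts of the scanner set and of other cells in these differences were not tested.

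In CD31_CD45 cells the differences were 0.50 for Sema3g, with 2502.7 on the aged and 1971.3 on the young array, -0.50 for Ephb1 with 37.4 and 66.6, 0.48 for Unc5b with 437.4 and 316.4, and -0.44 for Efna1 with 841 and 1210.2. Hematopoietic markers were higher on the aged array for 4 of 4 genes (median 0.63, summed intensity 3232.5 in aged and 2479.5 in young) and endothelial markers for 1 of 8 (median -0.26, summed intensity 13244.8 in aged and 17100.1 in young). The part of the mixture in these differences was not tested.

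**Figure D4:**
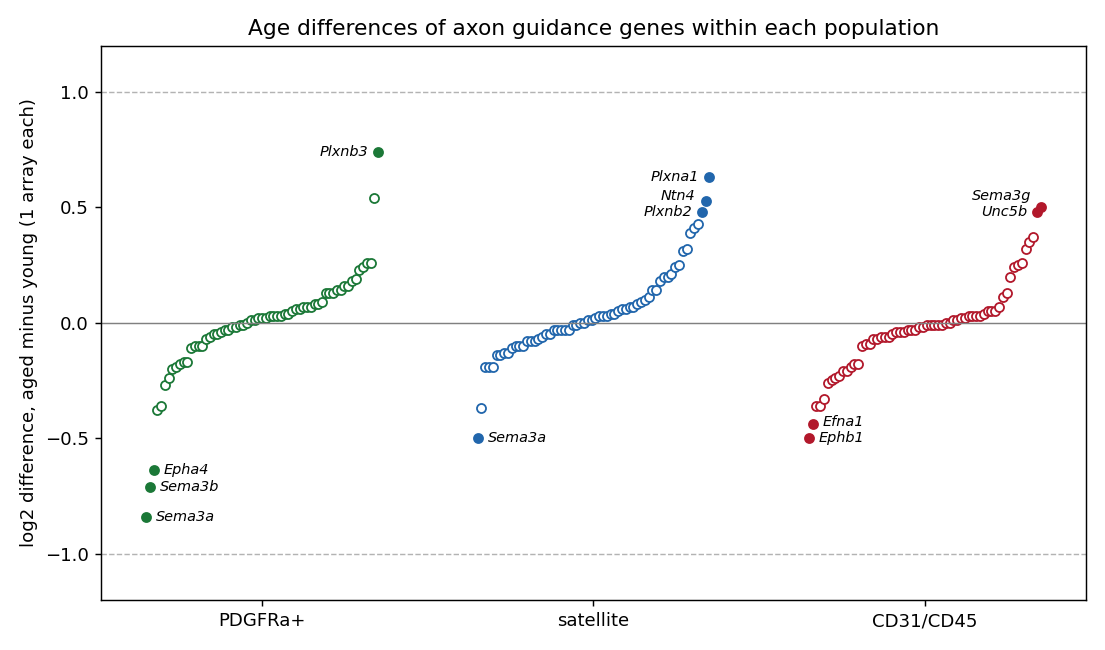
Log2 difference, aged minus young (1 array each), of the axon guidance genes in each population, ordered by size, with filled and named points for the 4 with the largest difference and dashed lines at 2-fold. All points lie between -0.84 (Sema3a) and 0.74 (Plxnb3), both in PDGFRa+ cells.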

How the data were processed

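Each of the 6 arrays has a scanner file and a column in a shared table. Per the file headers, 27456 spots were read per array, with a median pixel intensity for each. The authors' deposited table gives background-corrected linear intensity, scaled to a median of 25 on every array, and leaves a cell empty for a spot at or below background. To within 0.0643, a table value was the spot median minus the 5% trimmed mean of the array's 2736 blank spots, times 1 factor per array, and a cell was empty if its spot did not exceed that mean by 2 trimmed SD or was marked as bad. These table values are the intensities printed, and a filled cell is what counts as above background.

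Log2 values were computed from the spot medians with limma 3.58.1 in R 4.3.3: normexp on the blank-spot mean, offset 50, log2, quantile normalisation. The offset makes differences of dim genes smaller. Symbols came from the platform annotation, updated by Entrez identifier to RefSeq names (20690 of 23473 probes); unnamed probes were left out. For genes with several probes the brightest over the 6 arrays was kept. Population and age were fitted together to all 6 arrays (lmFit and eBayes, 2 residual degrees of freedom), with two-sided p-values adjusted by Benjamini-Hochberg over the 18372 genes above background on at least 2 arrays. Calls needed an adjusted p under 0.05 and, between populations, at least 2-fold. Age differences that populations do not share enter the error, and since each population's arrays are 2 pools, p-values measure only the spread between these arrays. Within a population, 1 aged array was compared with 1 young array without a test.

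Every family member was accounted for. Named with full values were members called between populations, partners of specific members in a fixed list of pairs, the 4 members with the largest age difference per population, and the 3 with the smallest p in the shared age term; single members near a threshold or bright in all populations were added after their values were seen. The members and lists were chosen with earlier results of these data known. Alternatives covered background, offset, the deposited table, normalisation, filters, probes, the age term, the scanner set and leaving out each array. Promoter sequences are RefSeq's, GRCm38.p6; the files name no build.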

Additional observations from a re-analysis of the deposited data

How the results depend on the processing

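The population differences of called members kept their direction in every alternative run: of 578 recomputed values, 509 stayed on the same side of the threshold, 69 no longer passed and 0 reversed. Counts depended on how dim signals were treated, on the PDGFRa+ arrays and on the scanner set. With each spot's own local background, PDGFRa+ minus satellite called 1 member, PDGFRa+ minus CD31_CD45 3 and satellite minus CD31_CD45 2, beside 68, 287 and 341 of 18372 genes. Then 1 member was specific to PDGFRa+ (Sema3c) and 2 to CD31_CD45 cells (Robo4, Sema3g). Members 2-fold apart with age were 2 in PDGFRa+, 2 in satellite and 3 in CD31_CD45 cells, beside 1084 of 17667, 1265 of 17724 and 926 of 17911 genes. Without background correction members were 13 for PDGFRa+ minus satellite and 2 for age in PDGFRa+ cells, beside 1925 of 18372 and 147 of 17875 genes. An offset of 10 gave 15 for PDGFRa+ minus satellite, 15 for satellite minus CD31_CD45, and 2 in PDGFRa+ and 1 in CD31_CD45 cells for age. All genes gave 2211 and 3377 of 18372 for these comparisons, and 196 of 17875 and 217 of 18090 for age. The deposited table (log2 of value + 1) gave 17, 32 and 20 members in the 3 comparisons in the order above, beside 2977, 3845 and 4414 of 18372 genes. It gave 9 specific to PDGFRa+, and 5, 3 and 1 for age in PDGFRa+, satellite and CD31_CD45 cells, with no share over all genes given here. The scanner set as a block gave 10 for PDGFRa+ minus CD31_CD45, beside 834 of 18372 genes. It gave 4 specific to CD31_CD45 cells, with no share over all genes given here. Leaving out 1 array gave 0 to 8 members for PDGFRa+ minus satellite, 13 to 18 for PDGFRa+ minus CD31_CD45, 9 to 10 for satellite minus CD31_CD45 and 0 to 4 specific to PDGFRa+ cells; the lone array of a population was then assumed to vary like the others. Of the 12 named age differences, the local background reversed Sema3b in PDGFRa+ (0.95), Epha4 in PDGFRa+ (0.37) and Plxnb2 in satellite cells (-1.57). The other 9 changed in size. Sema3a came to -0.10 in PDGFRa+ and -0.18 in satellite cells, and Plxnb3 in PDGFRa+ cells to 0.10. Plxna1 and Ntn4 in satellite cells came to 0.17 and 0.71. In CD31_CD45 cells Sema3g came to 0.08, Ephb1 to -0.01, Unc5b to 1.97 and Efna1 to -0.94. The cause of these changes was not tested. The labels carry no replicate numbers to pair arrays by; populations were compared with age as a term, and without it 8, 17 and 9 members were called, all shared with the fit that has it. No member under the array median of 25 on all arrays was called with the offset of 50, which left such genes almost no room for a 2-fold difference. Some of them were called with an offset of 10 and with the deposited table, so weak signals limit what 30 of the 63 genes can show.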
